A study of Mus musculus with 5 samples.

Results

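The 4 mouse metallothionein genes and 6 genes known to respond to glucocorticoids were followed in RNA sequencing of ear skin from mice with and without Cd1d, which displays lipid antigens to natural killer T cells. The members were chosen by symbol. They are Mt1, Mt2, Mt3 and Mt4, and Fkbp5, Tsc22d3, Sgk1, Pdk4, Klf9 and Zbtb16, and all 10 were found among the 27179 genes of the count table and were expressed highly enough to be tested. The study compared 3 libraries of Cd1d +/- mice, whose genotype tag reads WT and which are called controls here, with 2 libraries of Cd1d -/- mice (KO). The series title gives the background as B6. No age, sex or treatment is stated in the labels, which also do not say whether the libraries came from different mice, so p-values measure the spread between these 5 libraries, which may be technical.

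Metallothioneins are small, cysteine-rich proteins that bind zinc and copper. The zinc-sensing transcription factor MTF1 induces Mt1 and Mt2 through metal response elements, and glucocorticoids and oxidative stress also raise both. Mt3 is best known from brain, and Mt4 from differentiating cells of stratified squamous epithelia. Glucocorticoids bind the glucocorticoid receptor (Nr3c1), which moves to the nucleus and binds glucocorticoid response elements, and in skin they restrain inflammation and keratinocyte growth. Fkbp5, Tsc22d3, Sgk1, Klf9 and Zbtb16 are widely used readouts of this receptor, and Pdk4 answers to it and to fasting.

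The libraries held 32353957 to 79160005 counts, and 1 read corresponded to 0.0119 to 0.0303 CPM (reads of the gene relative to the library size, scaled by TMM factors). Cd1d1, the gene lost in the KO, had 6.61, 9.87 and 5.52 CPM in control replicates 1, 2 and 3 and 1.19 and 1.12 CPM in KO replicates 1 and 2, so the labels and this gene pointed the same way in each library. Keratinocyte markers were abundant in all 5 libraries, with summed levels of 3 suprabasal markers between 12880 and 15857 CPM. Inner root sheath markers of growing hair stood apart in KO replicate 1, with a summed level of 577 CPM against 11.4 to 19.4 CPM in the other libraries. Over all 17472 genes tested, 2.71% were higher and 1.05% lower in KO at an adjusted p under 0.05 (edgeR quasi-likelihood test, Benjamini-Hochberg).

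The metallothionein genes lie together on chromosome 8 (GRCm38), in the order Mt4, Mt3, Mt2 and Mt1, all on the plus strand and within 43.1 kb (94137204 to 94180327). Of the 10 members, 9 had a promoter sequence in the RefSeq table (GRCm38.p6, 250 bases before to 50 after an annotated start). The promoters of Mt1, Mt4 and Mt2 are shown because these are the metallothioneins whose KO values all lay above the controls, and capitals mark each match to the metal response element core TGCNCNC on either strand.
Mt1, chr8:94178839-94179138, plus strand: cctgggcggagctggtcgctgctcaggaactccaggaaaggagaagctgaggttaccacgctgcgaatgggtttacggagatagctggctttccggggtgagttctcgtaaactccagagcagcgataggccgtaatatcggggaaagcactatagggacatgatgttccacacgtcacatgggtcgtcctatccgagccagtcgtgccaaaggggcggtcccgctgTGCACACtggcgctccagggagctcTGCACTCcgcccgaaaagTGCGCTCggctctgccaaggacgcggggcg
Mt2, chr8:94172368-94172667, plus strand: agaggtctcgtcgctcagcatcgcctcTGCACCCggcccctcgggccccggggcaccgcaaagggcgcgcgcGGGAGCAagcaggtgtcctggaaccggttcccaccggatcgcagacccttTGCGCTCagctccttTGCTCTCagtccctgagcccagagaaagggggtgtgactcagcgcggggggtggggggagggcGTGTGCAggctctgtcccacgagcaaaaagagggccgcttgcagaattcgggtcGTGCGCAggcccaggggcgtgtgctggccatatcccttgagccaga
Mt4, chr8:94136954-94137253, plus strand: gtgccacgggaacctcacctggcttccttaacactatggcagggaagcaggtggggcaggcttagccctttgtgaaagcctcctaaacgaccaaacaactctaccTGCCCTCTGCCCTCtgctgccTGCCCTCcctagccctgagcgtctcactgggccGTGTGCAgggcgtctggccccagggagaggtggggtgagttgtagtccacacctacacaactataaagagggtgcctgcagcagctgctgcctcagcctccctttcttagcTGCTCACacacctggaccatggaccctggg
The Mt1 promoter held 3 such matches, Mt2 held 6 and Mt4 held 5, of which some adjoin each other, and the Mt3 promoter held 3. Matches at bases 3 and 21 in Mt1, 5 in Mt2, 21 in Mt4 and 28 and 40 in Mt3 lay after the annotated start. The counts depend on the annotated start used. The gene span of Mt1 begins at 94178883, inside the printed window and before the start used there. The positions of the Mt1 matches therefore hold for that start only, and windows on other possible Mt1 starts were not searched. Of 32851 mouse promoters of this length, 51% held at least 1 match, 7.1% at least 3, 0.697% at least 5 and 0.225% at least 6. The glucocorticoid response element core ACANNNTGT, which reads the same on both strands, occurred once in the Mt1 promoter and once at each of 2 of the 6 annotated Sgk1 starts. It did not occur at the other starts of members in the table, and 6.85% of all promoters held it. No match of one motif overlapped a match of the other in the members. A match describes the letters only.

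Mt1 and Mt4 rose in KO skin, and the other metallothioneins did not pass the test. Mt4, the squamous epithelial metallothionein, had 251, 256 and 225 CPM in control replicates 1, 2 and 3 and 379 and 349 CPM in KO replicates 1 and 2. Both KO libraries lay above all controls. The log2 fold change was 0.58 (SE 0.12), a level 1.49-fold higher (244 ± 16.4 CPM, SD, n = 3, against 364 ± 21 CPM, SD, n = 2; edgeR quasi-likelihood test, adjusted p = 0.0291). Mt1, one of the zinc- and stress-inducible pair, had 126, 128 and 135 CPM in controls and 192 and 180 CPM in KO. These groups did not overlap either, and the controls were close together. The log2 fold change was 0.52 (SE 0.11), a level 1.44-fold higher (129 ± 4.7 CPM, SD, n = 3, against 186 ± 8.84 CPM, SD, n = 2; edgeR quasi-likelihood test, adjusted p = 0.0332).

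Mt2, the partner of Mt1 and its nearest neighbour on the chromosome, had 151, 137 and 130 CPM in controls and 174 and 168 CPM in KO. The KO values again lay above the controls, but by a smaller margin, and the log2 fold change of 0.29 (SE 0.12, 95% interval 0.03 to 0.55) did not pass (edgeR quasi-likelihood test, adjusted p = 0.179). Mt3, the brain metallothionein, had the fewest reads of the family, with 3.21, 3.04 and 2.91 CPM in controls and 3.68 and 3.2 CPM in KO. The lower KO library lay within the controls, and the log2 fold change was 0.17 (SE 0.21, 95% interval -0.29 to 0.63; edgeR quasi-likelihood test, adjusted p = 0.679). In counts of the 4 genes together, the summed level was 493 to 531 CPM in controls and 699 and 749 CPM in KO. The transcripts of the 4 genes share no identical stretch over 27 bases. By gene spans, introns included, an annotated antisense gene covers 749 bases of Mt2. Whether reads were counted by strand is not stated in the labels, so reads of Mt2 and of that gene cannot be told apart.

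**Figure D1:**
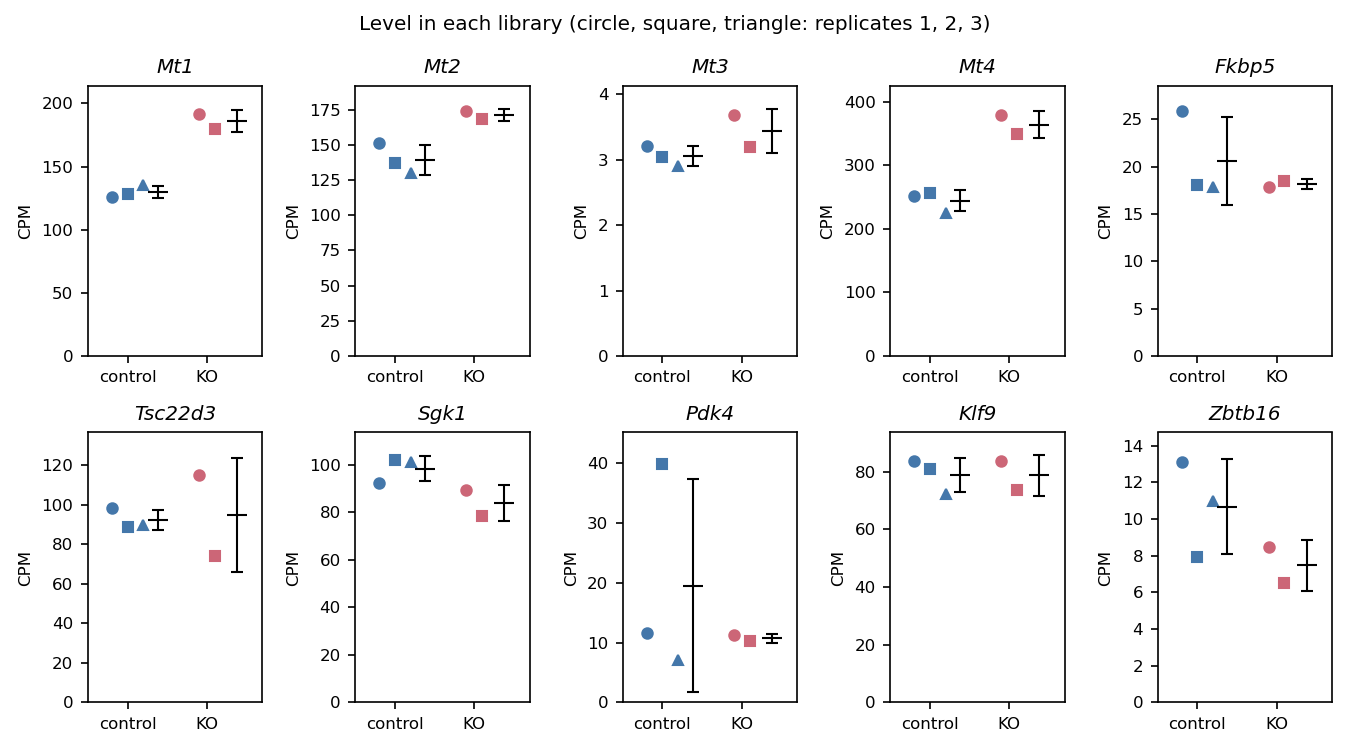
Level of each member in CPM (y axis, from 0) in the 3 control (blue) and 2 KO (red) libraries; circles, squares and triangles are replicates 1, 2 and 3, and black bars give the mean and SD. The KO libraries lie above all controls for Mt1, Mt2 and Mt4 and below all controls for Sgk1, while Pdk4 is high in control replicate 2 at 39.9 CPM.

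Of the 10 members, 2 were called higher (2.71% of all genes tested were) and 0 lower (1.05% of all genes). At an unadjusted p under 0.05 (edgeR), 3 members were higher, Mt1, Mt2 and Mt4, and 1 was lower, Zbtb16. At the same limit 2020 of all 17472 genes tested were higher and 1799 lower. Among the other tools run, DESeq2 called 2 members higher and 0 lower, and limma voom called 2 higher and 2 lower. Over all 17472 genes tested, DESeq2 called 1088 higher and 720 lower, and limma voom called 2605 higher and 2057 lower. In 4 of the 10 members the groups were apart (Mt1, Mt2 and Mt4 above, Sgk1 below), a share near the 39.9% of all genes tested. The median log2 fold change was 0.41 over the 4 metallothioneins, -0.21 over the 6 glucocorticoid response genes and -0.02 over all genes tested.

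Ratios within a library do not depend on how libraries are scaled, but they still carry any trend with transcript length or GC content. The ratio of Mt1 to Mt2 counts was 0.831, 0.932 and 1.04 in controls and 1.1 and 1.07 in KO. The ratio of Mt2 to Mt4 counts was 0.604, 0.535 and 0.576 in controls and 0.461 and 0.48 in KO. For both ratios the groups were separate, with exact two-sided permutation p = 0.2, the smallest that 3 against 2 libraries allow. The ratio of Mt1 to Mt4 overlapped between the groups, at 0.499 to 0.598 in controls and 0.507 and 0.515 in KO (exact two-sided permutation p = 1).

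The metallothioneins are encoded by short transcripts, and short transcripts as a class were higher in KO. The longest transcript matched to a curated RefSeq entry had 549 bases for Mt1, 511 for Mt2, 536 for Mt3 and 398 for Mt4, and a longer annotated form of Mt1 had 1085 bases. Among 163 tested genes with a longest transcript of 300 to 600 bases the median log2 fold change was 0.58, with 29 higher and 0 lower (17.8% higher), and among 1088 genes of 600 to 1200 bases it was 0.42. Both KO libraries carried this pattern. The median log2 deviation of the 300 to 600 base class from the mean of all libraries was 0.40 and 0.23 in KO replicates 1 and 2 and -0.20, -0.20 and -0.25 in the controls. The change of Mt4 was thus the same as the median of its length class, that of Mt1 lay between the medians of the classes its 2 transcript lengths fall in, 0.58 and 0.42, and those of Mt2 and Mt3 lay below the median of theirs.

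**Figure D2:**
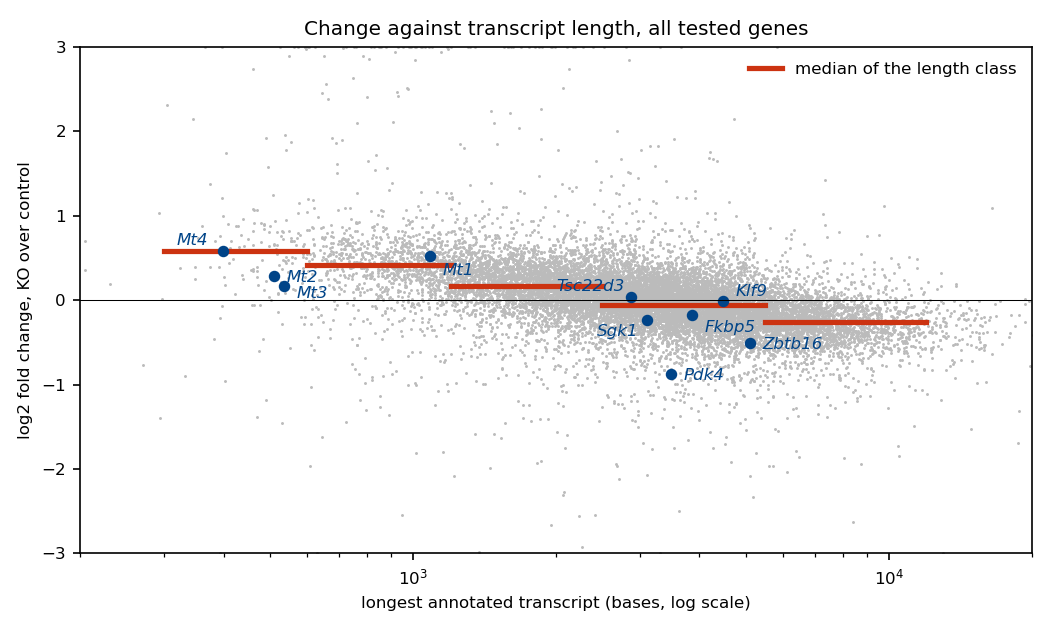
Log2 fold change of KO over control (y axis) against the longest annotated transcript in bases (x axis, log scale) for all tested genes with a known length (grey; changes beyond 3 in either direction are drawn at the edge), with the 10 members in blue and the median of each length class in red. The red medians fall from 0.58 for 300 to 600 bases to -0.26 for 5500 to 12000 bases, and Mt4 lies on the median of its class.

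When each library's trend on transcript length and GC content was removed with offsets, neither call held. Mt4 then had a log2 fold change of 0.09 (SE 0.10; edgeR quasi-likelihood test with offsets, adjusted p = 0.681), and Mt1 had 0.16 (SE 0.07, adjusted p = 0.285). Mt2 and Mt3 turned to -0.26 (SE 0.11, adjusted p = 0.243) and -0.50 (SE 0.22, adjusted p = 0.25). With the 549-base RefSeq transcript of Mt1 in place of the 1085-base form, an alternative chosen after seeing the data, its log2 fold change was -0.06 (SE 0.08, edgeR adjusted p = 0.752). Cd1d1 kept a log2 fold change of -2.75 (SE 0.24) with length and GC offsets, a change far larger than that of any member. The length trend separated KO from control libraries. Its removal therefore also takes out any genotype effect shared by transcripts of like length and GC content. The cause of the trend was not tested.

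**Figure D3:**
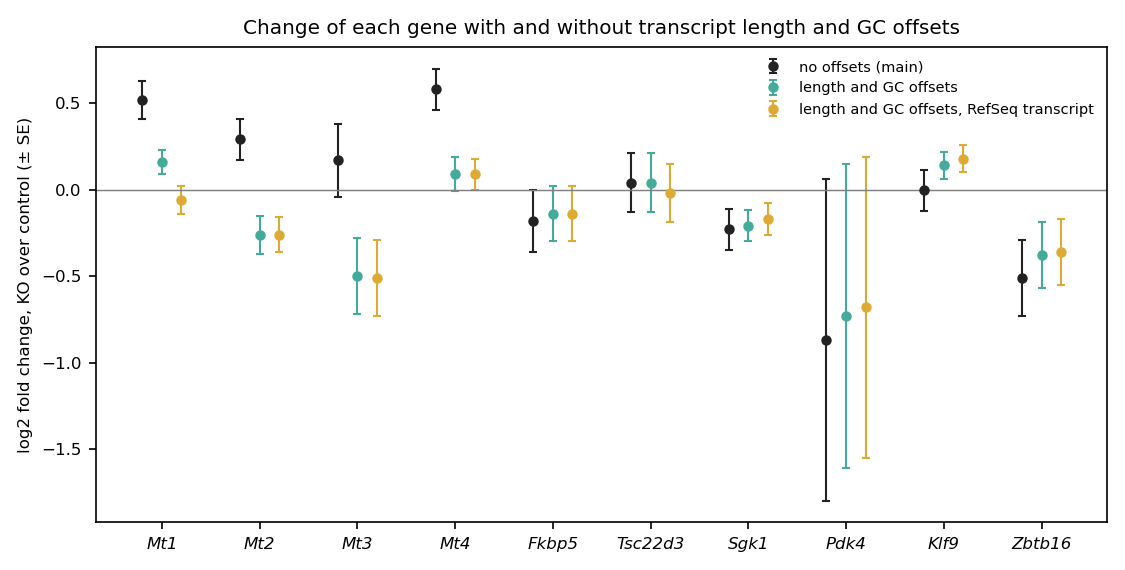
Log2 fold change of KO over control for each member (y axis; bars are SE) without offsets (black), with length and GC offsets (green) and with those offsets on the RefSeq-matched transcript (yellow). Mt1 and Mt4 go from 0.52 and 0.58 to 0.16 and 0.09 with offsets, while Klf9 goes from -0.0039 to 0.14 and Sgk1 from -0.23 to -0.21.

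The calls of Mt1 and Mt4 held without control replicate 2 (adjusted p = 0.0179 and 0.00999, edgeR quasi-likelihood test) and without control replicate 3 (adjusted p = 0.00301 and 0.00509), but not without any 1 of the other libraries. The adjusted p was 0.212 for Mt1 and 0.154 for Mt4 without control replicate 1, 0.387 and 0.359 without KO replicate 1, and 0.197 and 0.159 without KO replicate 2 (edgeR quasi-likelihood test, which lets a single remaining KO library take its spread from the controls). In those 3 fits the calls over all genes fell from 657 to 0, 1 and 128. The log2 fold changes of Mt1 and Mt4 stayed between 0.47 and 0.63 with any 1 library left out. With library size alone as the scaling, the median of all genes moved to -0.16 and Mt1 and Mt4 had 0.38 and 0.43, with adjusted p = 0.0643 and 0.0562.

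Some markers of other tissue compartments moved the same way as Mt1 and Mt4. The summed level of 6 skeletal muscle markers was 3359 to 3735 CPM in controls and 4730 and 5282 CPM in KO, and 2 of 6 passed as higher (edgeR; 5 by DESeq2 and 5 by limma voom). The summed level of 5 adipocyte markers was 564 to 940 CPM in controls and 984 and 1125 CPM in KO, and 1 of 5 passed as higher (edgeR; 2 by DESeq2 and 3 by limma voom). With length and GC offsets, the median log2 fold change of the muscle markers went from 0.45 to 0.21. That of the adipocyte markers went from 0.52 to 0.20. Then 2 of 6 and 1 of 5 passed, but not all were the same genes. Pvalb passed in both fits, Ckm replaced Mylpf and Fabp4 replaced Cfd (Ckm and Fabp4 named after their values were seen). With those offsets on the RefSeq transcript 2 of 6 and 0 of 5 passed, and with length offsets alone 0 of either list passed. None of these markers was at 0 in all libraries, and the part of muscle and fat in the metallothionein result was not tested. The summed suprabasal keratinocyte markers, of the compartment where Mt4 is known, overlapped between the groups. They were at 12880 to 14978 CPM in controls and 13725 and 15857 CPM in KO, with 0 of 3 passing (edgeR; 1 of 3 at an unadjusted p under 0.05, 1 by DESeq2 and 1 by limma voom). Krt10 made up most of this sum (mean of 13007 CPM in controls), and it and Krt1 overlapped between the groups. Ivl, named after its values were seen, had 53.1, 52.7 and 46.3 CPM in controls and 64.4 and 70.5 CPM in KO. Its log2 fold change was 0.41 (SE 0.12; edgeR adjusted p = 0.0832), and 0.27 (SE 0.09) with length and GC offsets. The inner root sheath markers were high in KO replicate 1 alone. Mt1 and Mt4 had 192 and 379 CPM in KO replicate 1 and 180 and 349 CPM in KO replicate 2. The part of hair growth in these values was not tested. Summed basal keratinocyte markers overlapped, at 12564 to 14946 CPM in controls and 14296 and 15575 CPM in KO. Of these 4 markers 1 passed, Itga6, lower at -0.78 (SE 0.14; edgeR adjusted p = 0.0219). It passed with length and GC offsets too (-0.66, edgeR adjusted p = 0.0111), but not with length offsets alone. Fibroblast markers overlapped at 20322 to 26678 CPM in controls and 22496 and 21733 CPM in KO. Of 4, 0 passed (edgeR; 1 lower by DESeq2 and by limma voom). In whole tissue, a shift in the share of a cell type and a shift in RNA per cell cannot be told apart.

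Among the glucocorticoid response genes none of 6 passed (edgeR; 1 at an unadjusted p under 0.05, 0 by DESeq2 and 2 as lower by limma voom). Fkbp5, a co-chaperone of HSP90 that dampens the glucocorticoid receptor, had 25.9, 18 and 17.8 CPM in controls and 17.8 and 18.5 CPM in KO. Control replicate 1 was high, and the other 4 libraries were nearly level. Its log2 change was -0.18 (SE 0.18, 95% interval -0.57 to 0.21; edgeR quasi-likelihood test, adjusted p = 0.583), and it was 0.02 without control replicate 1. Limma voom with quality weights called it lower, at -0.42 (SE 0.14, adjusted p = 0.0495). Fkbp5 shares its span with annotated genes on both strands.

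Tsc22d3, which encodes the anti-inflammatory protein GILZ, had 98.1, 88.9 and 89.6 CPM in controls and 115 and 74.2 CPM in KO. The KO libraries lay on either side of the controls, the highest and the lowest of all 5. The log2 fold change was 0.04 (SE 0.17, 95% interval -0.34 to 0.41; edgeR quasi-likelihood test, adjusted p = 0.933). Klf9, a transcription factor of the Krüppel-like family, was the steadiest member, with 83.7, 80.8 and 72.3 CPM in controls and 83.8 and 73.7 CPM in KO. Its log2 CPM ranged over 0.21 across the 5 libraries, and its log2 fold change was -0.0039 (SE 0.12, 95% interval -0.28 to 0.27; edgeR quasi-likelihood test, adjusted p = 0.992).

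Sgk1, a kinase that controls ion channels and transporters, had 92.2, 102 and 101 CPM in controls and 89.2 and 78.6 CPM in KO. Both KO values lay below the controls, the higher of them by a few CPM only. KO over control gave a log2 fold change of -0.23 (SE 0.12, 95% interval -0.50 to 0.03; edgeR quasi-likelihood test, adjusted p = 0.287). Zbtb16, which encodes the transcription factor PLZF and is also required for natural killer T cells to develop, had 13.1, 7.93 and 11 CPM in controls and 8.48 and 6.51 CPM in KO. Control replicate 2 lay between the KO libraries. The log2 fold change was -0.51 (SE 0.22, 95% interval -0.99 to -0.02; edgeR quasi-likelihood test, adjusted p = 0.21), and it was -0.69 (SE 0.18, adjusted p = 0.0284) without control replicate 2. Limma voom also called Zbtb16 lower, at -0.70 (SE 0.19, adjusted p = 0.0167). The summed level of 4 T cell markers, listed beside Zbtb16 as a lymphocyte check, was 30.6 to 36.3 CPM in controls and 45.7 and 36.3 CPM in KO, with 0 of 4 passing (edgeR; 1 at an unadjusted p under 0.05, 0 by DESeq2 and 2 by limma voom).

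Pdk4, the kinase that shuts off pyruvate dehydrogenase when fat is burned in place of sugar, varied most of all members. It had 11.6, 39.9 and 7.1 CPM in controls and 11.2 and 10.2 CPM in KO. Control replicate 2 stood apart, and both KO values lay within the range of the other controls. Over all 5 libraries the log2 fold change was -0.87 (SE 0.93, 95% interval -3.63 to 1.88; edgeR quasi-likelihood test, adjusted p = 0.661), and it turned to 0.19 (SE 0.21, adjusted p = 0.64) without control replicate 2. Angptl4, a lipase inhibitor also raised by fasting and chosen after its values were seen, was highest in the same library, at 32.5 CPM against 13.1 to 23.4 CPM in the others.

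By the distance between centred log2 CPM profiles over the 5 libraries, among 13788 named genes with a mean of at least 1 CPM, the gene nearest to Pdk4 was Ucp3, a mitochondrial uncoupling protein of muscle. Ucp3 had 3.71, 7.75 and 2 CPM in controls and 3.66 and 2.45 CPM in KO, a root-mean-square difference of 0.282 from Pdk4 on the log2 scale. The next were Scgb1a1 (0.378) and Akr1c18 (0.388), which were also highest in control replicate 2. Zbtb16, the member with the second widest range, had Prdm16os (0.078), Optc (0.086) and Bbof1 (0.103) as its nearest genes. With 5 libraries and so many genes searched, these are descriptions only.

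Levels can be compared between genes only per length, here as CPM per kilobase of the RefSeq-matched transcript. Mt4 was the most abundant member in control skin, at 613 ± 41.3 CPM per kilobase (SD, n = 3), followed by Mt2 at 273 ± 21.4 and Mt1 at 236 ± 8.57 CPM per kilobase. In the controls Mt2 (254 to 296) lay above Mt1 (229 to 245), while in KO they overlapped, with 341 and 328 for Mt2 and 350 and 327 for Mt1. On its longer 1085-base form Mt1 would have 116 to 124 CPM per kilobase in controls and 177 and 165 in KO, below Mt2 in every library. These 3 genes lay at the percentiles of 99.2, 98.5 and 98.3 of the control level per length among 15479 tested genes. Tsc22d3 followed at 46.7 ± 2.6, Sgk1 at 31.9 ± 1.81 and Klf9 at 17.6 ± 1.32 CPM per kilobase (SD, n = 3). On its longest form of 2876 bases Tsc22d3 would have 32.1 ± 1.78 CPM per kilobase (SD, n = 3), level with Sgk1. Fkbp5, Mt3 and Pdk4, at 5.8 ± 1.3, 5.7 ± 0.283 and 5.6 ± 5.1 CPM per kilobase, were not apart beyond their spread, and Zbtb16 was lowest at 2.09 ± 0.505 CPM per kilobase (SD, n = 3).

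None of the other genes known to be induced by glucocorticoids was called. Of 28 such genes 0 passed in either direction (edgeR; 1 higher and 3 lower at an unadjusted p under 0.05, 0 higher and 1 lower by DESeq2, 2 higher and 3 lower by limma voom), with a median log2 fold change of -0.05 against -0.02 for all genes. Their groups did not overlap for 11 of 28 genes, 5 with KO above and 6 below, beside 39.9% of all genes. The smallest p belonged to Fbxo32, a ubiquitin ligase of muscle wasting, at -0.45 (SE 0.12; edgeR adjusted p = 0.0582), and Mertk, a receptor for clearing dead cells, at -0.48 (SE 0.16; edgeR adjusted p = 0.117). With length and GC offsets Fbxo32 was at -0.17 (SE 0.09). Of the 28 genes 9 were highest in control replicate 3, among them Dusp1, Per1 and Zfp36, named after their values were seen.

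The same library was high in immediate early genes, which respond within minutes to many stimuli. The 8 listed genes summed to 1236 CPM in control replicate 3 and to 546 to 709 CPM in the other libraries, and 7 of 8 were highest there. Dusp1, a phosphatase that limits MAP kinases, had 165 CPM in control replicate 3 against 59.6 to 85.4 CPM elsewhere, and Zfp36, which destabilises cytokine mRNAs, had 91.3 against 42.3 to 45 CPM. Of the 8 early genes 0 passed (edgeR; 0 at an unadjusted p under 0.05, 0 by DESeq2, 1 higher and 1 lower by limma voom), with Egr1 at -0.79 (SE 0.44) and Fos at -1.60 (SE 0.85) having the smallest p. Without control replicate 3, 2 of the 28 glucocorticoid-induced genes passed as higher and 2 as lower, and 2 of the 8 early genes passed as higher. In that fit 1842 of all 17403 genes tested passed as higher and 1435 as lower. The part of this library's early genes in the values of the glucocorticoid-induced genes was not tested.

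**Figure D4:**
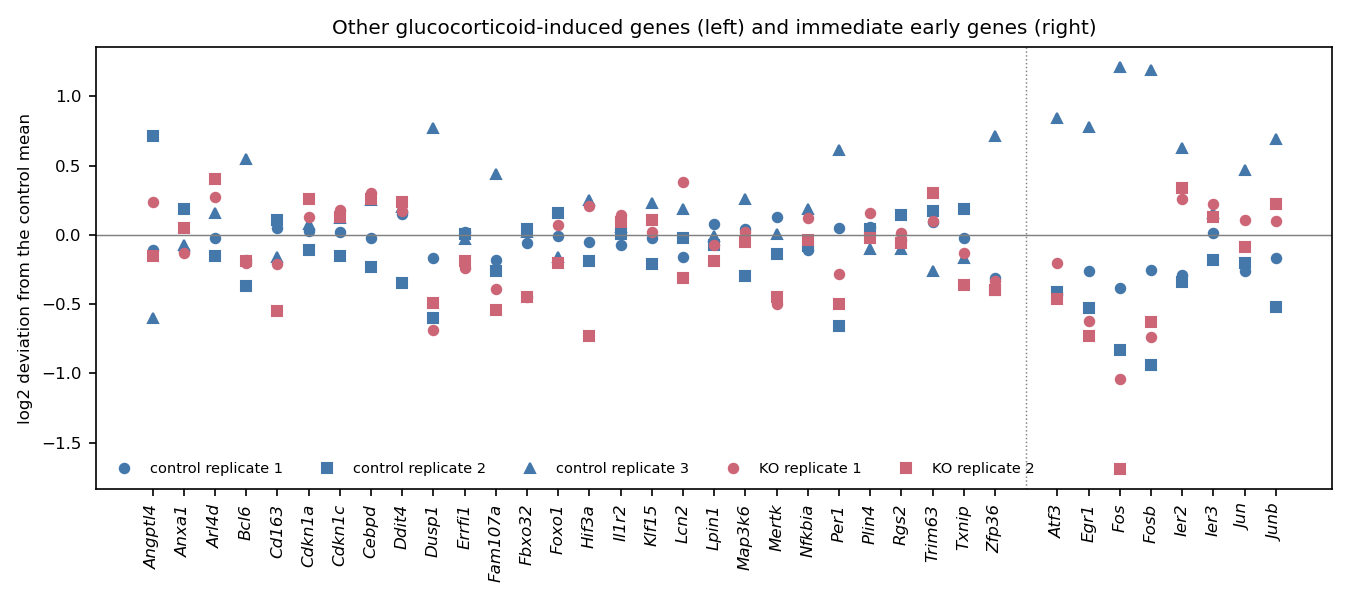
Log2 deviation of each library from the control mean (y axis) for 28 other glucocorticoid-induced genes (left of the dotted line) and 8 immediate early genes (right); blue is control, red is KO, and circles, squares and triangles are replicates 1, 2 and 3. Control replicate 3 (blue triangles) is the highest library for 9 of the 28 and for 7 of the 8 genes.

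Genes that carry or supply the hormone signal were not called either. Of 12 receptor and chaperone genes 0 passed (edgeR; 1 higher and 2 lower at an unadjusted p under 0.05, 0 higher and 1 lower by DESeq2, 1 higher and 3 lower by limma voom), with a median log2 fold change of -0.10. Nr3c1, the glucocorticoid receptor, had 155, 190 and 136 CPM in controls and 139 and 136 CPM in KO, a log2 fold change of -0.22 (SE 0.15; edgeR adjusted p = 0.41). Ncoa2, a receptor coactivator, was at -0.41 (SE 0.12; edgeR adjusted p = 0.0884), and Nr3c2, the mineralocorticoid receptor, which also binds corticosterone, at -0.90 (SE 0.30; edgeR adjusted p = 0.118). With length and GC offsets the median of the 12 genes was 0.04, and 0 passed (edgeR). Nr3c1 was then at 0.08 (SE 0.08), Ncoa2 at -0.12 (SE 0.09) and Nr3c2 at -0.67 (SE 0.30). Of 11 genes for hormone activation and local steroid synthesis 8 could be tested and 0 passed (edgeR; 2 higher at an unadjusted p under 0.05, 0 by DESeq2 and 0 by limma voom), with a median of 0.02. Hsd11b1, which regenerates active hormone, had 10.6, 10.1 and 9.59 CPM in controls and 8.83 and 11.5 CPM in KO, a log2 fold change of 0.0072 (SE 0.16; edgeR adjusted p = 0.987). Hsd11b2, which inactivates the hormone, was high in KO replicate 1 alone, at 2.49 CPM against 0.425 to 0.613 CPM in the other libraries, and Pomc, the precursor of the hormone that drives the adrenal gland, was at 0.97 (SE 0.39; edgeR adjusted p = 0.185). Pomc had few reads, with 19 to 71 counts per library. Its levels were 0.842, 0.391 and 0.576 CPM in controls and 1.1 and 1.28 CPM in KO. Its log2 fold change was 0.50 (SE 0.39) with length and GC offsets. Clock genes, among them Per1 of the glucocorticoid-induced list, had 0 of 10 passing (edgeR; 0 at an unadjusted p under 0.05, 0 by DESeq2 and 1 by limma voom), with a median of -0.19, and Per3 and Nr1d2 at -0.36 (SE 0.20) and -0.38 (SE 0.21) had the smallest p.

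Metal-handling genes outside the family gave 1 rise and 1 fall among 12. Mtf1, the zinc sensor that drives Mt1 and Mt2, had 23, 23.3 and 24.8 CPM in controls and 22.5 and 20.3 CPM in KO, a log2 fold change of -0.14 (SE 0.12; edgeR adjusted p = 0.537). Slc30a1, the zinc exporter that MTF1 also induces, had 59.3, 63.2 and 48.4 CPM in controls and 63.1 and 56.1 CPM in KO, a log2 fold change of 0.06 (SE 0.14; edgeR adjusted p = 0.835). With length and GC offsets Mtf1 turned to 0.12 (SE 0.10; edgeR adjusted p = 0.569). Slc30a1 was then at 0.27 (SE 0.09; edgeR adjusted p = 0.126). The gene that rose was Selenow, a small selenoprotein, with 431, 480 and 474 CPM in controls and 742 and 708 CPM in KO, a log2 fold change of 0.65 (SE 0.11; edgeR adjusted p = 0.0215). Its longest transcript had 736 bases, and with length and GC offsets its log2 fold change was 0.12 (SE 0.10; edgeR adjusted p = 0.571). The gene that fell was Gclc, the catalytic subunit of the enzyme that limits glutathione synthesis, with 29.3, 29.3 and 26.6 CPM in controls and 19.1 and 20.4 CPM in KO. Its log2 fold change was -0.53 (SE 0.12; edgeR adjusted p = 0.0458), and it still passed with length and GC offsets, at -0.47 (SE 0.09; edgeR adjusted p = 0.0237), but not with length offsets alone (-0.49, edgeR adjusted p = 0.155).

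Gclc was also the 1 gene that fell among 8 oxidative stress genes under the transcription factor NRF2, with 0 rising and a median of -0.01. Of 24 zinc transporters of the Slc30a and Slc39a families 21 could be tested and 0 passed (edgeR; 0 higher and 1 lower at an unadjusted p under 0.05, 0 by DESeq2, 2 higher and 1 lower by limma voom), with a median of -0.02. The smallest p belonged to Slc30a7 at -0.33 (SE 0.12; edgeR adjusted p = 0.13) and Slc39a14 at -0.28 (SE 0.13; edgeR adjusted p = 0.242), which load zinc into the Golgi and import it into the cell. Slc30a7 was at 0.01 (SE 0.09) and Slc39a14 at -0.14 (SE 0.11) with length and GC offsets. With length and GC offsets 1 of the 21 passed, Slc30a9, a zinc transporter known from mitochondria and named after its value was seen, as higher at 0.51 (SE 0.08; edgeR adjusted p = 0.00891). It did not pass with length offsets alone (0.46, edgeR adjusted p = 0.164) or without offsets (0.26, edgeR adjusted p = 0.251).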

How the data were processed

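Total RNA of ear skin was sequenced, and the authors deposited raw read counts per Entrez gene, not normalized. Per the submitters' processing notes, FastQC, HISAT2 2.0.4, DESeq2 1.16.1 and the build GRCm38 (mm10) were used. The counting program, strand setting and treatment of shared reads are not stated in the labels. Symbols came from RefSeq (25275 of 27179 genes), and transcript length and GC content from GENCODE M21, the longest transcript per gene (90.5% of tested genes, all 10 members).

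Computed here: filterByExpr left 17472 genes, which were scaled with TMM and tested with edgeR 4.0.16 (quasi-likelihood, robust, R 4.3.3, Benjamini-Hochberg, threshold 0.05). The biological coefficient of variation was 0.154. SE is the log2 fold change over the square root of F, and 95% intervals use it. Log2 CPM used a prior count of 2. Length and GC offsets are smooth trends per library (mgcv). DESeq2 1.42.0 and limma 3.58.1 (voom with quality weights) were alternatives.

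Members and lists were chosen with earlier results of these data known. Besides members and Cd1d1, the text names Nr3c1, Hsd11b1, Mtf1, Slc30a1, up to 4 passing genes per list or else the 2 with the smallest p, and the 3 nearest profiles of the 2 most variable members (predicted and clone-named genes passed over); other genes are said to be chosen after their values were seen. Of the listed symbols 1, a suprabasal marker, was not matched. Library pairs differed beyond sampling noise (chi-square per degree of freedom of 23.4 or more). The scripts were tested on simulated data.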

Additional observations from a re-analysis of the deposited data

How the results depend on the processing

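The number of genes past the threshold was 657 in the fit reported, 1242 with library size scaling (268 higher and 974 lower), 1036 with no count filter, 1808 with DESeq2, 4662 with limma voom, 21 with length offsets alone, and 0 (2253 genes at an unadjusted p under 0.05; edgeR, without control replicate 1) to 3277 (without control replicate 3) when each library was left out. Members past the threshold were 2 in the fit reported, 4 with limma voom, 0 with library size scaling, with length offsets, and with length and GC offsets on either transcript, and 0 (without control replicate 1, KO replicate 1 or KO replicate 2) to 3 (without control replicate 2) with a library left out. Genes of the 8 other lists past the threshold were 2, against 6 with library size scaling, 4 with DESeq2, 19 with limma voom, 0 with length offsets, and 0 to 14 with a library left out.

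Signs turned for Mt1 (-0.06, length and GC offsets on the RefSeq transcript), for Mt2 (-0.26, -0.23 and -0.26) and Mt3 (-0.50, -0.36 and -0.51) under length and GC, length alone and RefSeq-transcript offsets, for Klf9 (0.14, 0.12 and 0.18) under the same offsets, and for Tsc22d3 (-0.11 with library size scaling, -0.05 with limma voom, -0.02 with RefSeq-transcript offsets). With a library left out, the log2 fold change of Fkbp5 ran from -0.28 to 0.02, of Tsc22d3 from -0.31 to 0.32, of Pdk4 from -1.26 to 0.19 and of Klf9 from -0.10 to 0.08. The cause was not tested for these. In all, 134 of 170 member values under the 17 alternatives kept direction and side of the threshold.

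The replicate numbers were not shown to pair the samples: deviations of same-numbered libraries correlated at 0.016 and 0.064. With a replicate block on replicates 1 and 2, 1876 genes and 2 members passed, 8 genes of the other lists passed, and Tsc22d3 was at -0.02. Depth limits Mt3 most, with 96 to 271 counts per library.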
